A study of Caenorhabditis elegans with 4 samples.

Results

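The myogenic transcription factors hlh-1, unc-120, hnd-1, pal-1 and hlh-8 of Caenorhabditis elegans were followed in embryonic body-wall muscle cells that lack the muscle microRNA miR-1. These 5 genes were chosen by name, for their roles in muscle fate, and all 5 had a row among the 14463 genes of the count table. The comparison asked whether the regulators of muscle fate changed together with the contractile genes, nearly all of which had lower values in the mutant cells. The samples were 2 libraries from mir-1(luc108) embryos and 2 from wild-type embryos, all at the 1.5-fold stage, when the embryo elongates and its muscle is differentiating. The mutant strain carried mir-1(luc108), an engineered deletion of the mir-1 hairpin on chromosome I, together with lucEx1207(myo-3p::YFP), and the wild-type strain carried lucEx1207(myo-3p::YFP) alone. In this transgene the promoter of the body-wall muscle myosin gene myo-3 drives yellow fluorescent protein from an extrachromosomal array. The sort was therefore aimed at cells that had kept the array and already used the myo-3 promoter. Each library was made from 5000 sorted cells with QuantSeq, a method that starts cDNA synthesis at the poly(A) tail and so reads the 3′ end of an mRNA. Tags carried unique molecular identifiers (UMIs), and each UMI was counted once.

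Body-wall muscle fate in the worm embryo rests on a small network of DNA-binding proteins. HLH-1 is the worm member of the MyoD family of basic helix-loop-helix (bHLH) proteins, UNC-120 is a MADS-box protein of the serum response factor type, and HND-1 is a bHLH protein of the HAND family. These factors act redundantly to turn on the muscle program, and HLH-1 and UNC-120 remain in differentiated muscle whereas HND-1 acts early. PAL-1, a Caudal-type homeodomain protein, specifies the C and D lineages and acts upstream of the muscle factors there. HLH-8, the worm Twist protein, belongs to the M mesoblast, whose descendants include sex muscles and postembryonic body-wall muscle, and it pairs with the broadly expressed E protein HLH-2.

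The libraries held 453341 and 343227 UMI counts in mir-1(luc108), against 245336 and 424968 in wild type. A single UMI corresponded to between 2.27 and 4.27 normalized counts (CPM, UMI counts scaled to 1000000 per library), so a gene with a few UMIs was measured coarsely. The share of UMIs falling on the top 10 genes was similar between libraries, at 7.11 to 8.43%. Every pair of libraries differed by more than counting noise (chi-square divided by its degrees of freedom, 1.91 to 2.98). Library 2 of wild type correlated more closely over genes with library 1 of mir-1(luc108) (r = 0.943) than with library 1 of wild type (r = 0.927). The pair with r = 0.943 were the 2 deepest libraries, and library 1 of wild type was the shallowest. By the chi-square measure the order was reversed, with 2.24 for the pair across genotypes and 1.99 for the wild-type pair. The 11 markers of body-wall muscle were all detected in each library and made up 1.49 to 2.3% of the counts. Of 10 pharyngeal muscle markers, 7 were detected in all 4 libraries. The summed pharyngeal level was 339 and 309 CPM in mir-1(luc108) and 290 and 551 CPM in wild type, and the myosin genes myo-1 and myo-2 were low, with myo-2 at 0 in library 1 of wild type. The summed level of intestinal markers was 257 and 284 CPM in mir-1(luc108) and 115 and 423 CPM in wild type. Epidermal markers summed to 966 and 852 CPM in mir-1(luc108) and 879 and 838 CPM in wild type. Neuronal markers summed to 593 and 499 CPM in mir-1(luc108) and 431 and 579 CPM in wild type. The share of other cell types in the levels given below was not tested. In a bulk sample, fewer cells with a transcript and less transcript per cell cannot be told apart. Counts of mir-1 were not analysed here, so the genotypes are those of the labels.

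The level of the regulators came first. Because QuantSeq gives a tag per mRNA end and not per stretch of mRNA, levels of different genes were compared in CPM without division by length. unc-120 (WBGene00006844; chromosome I, 8460225 to 8463015, plus strand, WBcel235) was the most abundant of the 5, with a mean over the 4 libraries of 246 CPM, above 95.4% of the genes in the table. hlh-1 (WBGene00001948; chromosome II, 4518574 to 4522528, plus strand) averaged 53.6 CPM, above 79% of the genes. pal-1 (WBGene00003912; chromosome III, 4804688 to 4809576, minus strand) averaged 33.7 CPM, above 70.5% of the genes. hlh-8 (WBGene00001953; chromosome X, 8116457 to 8120351, plus strand) averaged 12.8 CPM, above 52% of the genes. hnd-1 (WBGene00001981; chromosome X, 11684561 to 11685788, plus strand) averaged 4.84 CPM, and only 36.8% of the genes were lower. The serum response factor-like gene had the highest mean of the 5 and the early factor gene hnd-1 the lowest.

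Neighbours in this order were compared library by library. The lowest unc-120 library (213 CPM) lay above the highest hlh-1 library (64 CPM), with mean levels 4.6-fold apart. hlh-1 was above pal-1 in 3 of 4 libraries only, and their ranges overlapped, so the order of this pair was not resolved. The lowest pal-1 library (25.6 CPM) was above the highest hlh-8 library (21.3 CPM). hlh-8 exceeded hnd-1 in 4 of 4 libraries, although the lowest hlh-8 value (6.31 CPM) fell below the highest hnd-1 value (6.82 CPM). Among the 17 genes named hlh- in the table, hlh-1 ranked 6 by mean level in mir-1(luc108) and 4 in wild type. hlh-30, the worm TFEB protein that regulates lysosome and autophagy genes, was the highest in both, with 280 CPM over the 4 libraries. hlh-32, at 110 CPM over the 4 libraries, was above hlh-1 in both genotypes too. The E protein partner hlh-2 (54.6 CPM), hlh-13 (64.9 CPM), and the Achaete-Scute type proneural genes hlh-14 (63.3 CPM) and hlh-3 (55.2 CPM) were close to hlh-1, and each of these was above it in mean level in only 1 of the genotypes.

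**Figure D1:**
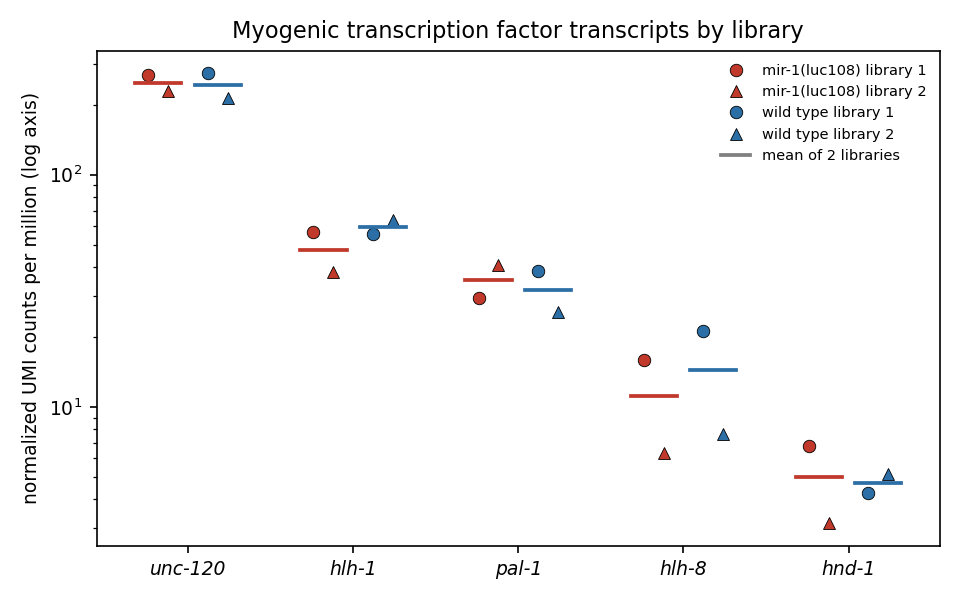
Normalized UMI counts in CPM (log axis) of the 5 myogenic transcription factors in each library, with mir-1(luc108) in red on the left of each pair and wild type in blue on the right. Points are libraries and lines are means of 2 libraries. The genotypes overlap for each of the 5 genes, and the genes span from 246 CPM for unc-120 to 4.84 CPM for hnd-1.

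None of the 5 regulators separated the genotypes. For each of the 5, the mir-1(luc108) and wild-type values overlapped, while 38.3% of the 5111 genes tested had genotypes that did not overlap, 19.5% with mir-1(luc108) higher and 18.9% with mir-1(luc108) lower. Of the 5, 3 passed the filter on low counts and were tested. The quasi-likelihood test of edgeR, adjusted over all genes by Benjamini-Hochberg, called 0 of these 3, and 0 had an unadjusted p below 0.05. The same test called 0.0587% of all genes tested (3 genes, with 0.0196% higher and 0.0391% lower in mir-1(luc108)). An unadjusted p below 0.05 was found for 8.2% of all genes, 3.62% on the higher and 4.58% on the lower side. Values above 0 were found for 2 of the 3 factors and for 50.3% of all genes. limma voom fitted the same 3 and DESeq2 fitted 4 of the 5. Under both, 0 were called and 0 had an unadjusted p below 0.05, and DESeq2 gave no adjusted p for them. With a call rate this low, the absence of a call says little, and the intervals below show what size of change the counts allow. The labels do not say whether libraries of a genotype came from separate cultures, though the study calls them biological duplicates, and p-values measure only the spread between these libraries.

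unc-120, the serum response factor-like gene, had 118 and 73 UMI counts in mir-1(luc108) and 64 and 83 in wild type. After normalization these were 268 and 230 CPM in mir-1(luc108), against 273 and 213 CPM in wild type. Each genotype held a higher and a lower library at closely similar levels, and the means were 249 ± 26.6 CPM in mir-1(luc108) and 243 ± 42.9 CPM in wild type (SD, n = 2 each). edgeR put the log2 fold change at 0.06 with a standard error of 0.23 (adjusted p = 0.976, quasi-likelihood test and Benjamini-Hochberg adjustment). The 95% interval ran from 0.752-fold to 1.45-fold, the narrowest of the regulators. For counting error alone, the ratio of summed counts was 1.07 (0.86 to 1.34, exact Poisson 95% interval).

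hlh-1, the MyoD gene, had 25 and 12 UMI counts in mir-1(luc108) and 13 and 25 in wild type. These were 56.8 and 37.9 CPM in mir-1(luc108), against 55.5 and 64 CPM in wild type. Library 1 of mir-1(luc108) sat between the wild-type libraries and library 2 sat below both. The means were 47.3 ± 13.4 CPM in mir-1(luc108) and 59.8 ± 6.03 CPM in wild type (SD, n = 2 each). In the same edgeR test the log2 fold change was −0.32 with a standard error of 0.36 (adjusted p = 0.903). The 95% interval ran from 0.474-fold to 1.36-fold, so neither a fall to the lower bound nor a modest gain was resolved at this depth. The summed counts were 37 in mir-1(luc108) and 38 in wild type, a ratio of 0.804 after scaling for depth (exact Poisson 95% interval 0.497 to 1.3).

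pal-1, the Caudal gene of the C and D lineages, had 13 and 13 UMI counts in mir-1(luc108) and 9 and 10 in wild type. The normalized levels were 29.5 and 41 CPM in mir-1(luc108), against 38.4 and 25.6 CPM in wild type. The libraries of the genotypes alternated in order, and the means were 35.3 ± 8.13 CPM in mir-1(luc108) and 32 ± 9.06 CPM in wild type (SD, n = 2 each). In the same edgeR test the log2 fold change was 0.17 with a standard error of 0.47 (adjusted p = 0.967), and the 95% interval ran from 0.572-fold to 2.21-fold. The direction of unc-120 and of pal-1 was not stable. Without library 1 of mir-1(luc108) the log2 fold change of unc-120 was −0.07, and without library 2 of wild type it was −0.13. For pal-1 it was −0.06 without library 2 of mir-1(luc108) and −0.15 without library 2 of wild type.

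hlh-8 and hnd-1 did not pass the filter and are given by their counts. hlh-8, the Twist gene, had 7 and 2 UMI counts in mir-1(luc108) and 5 and 3 in wild type, or 15.9 and 6.31 CPM in mir-1(luc108), against 21.3 and 7.68 CPM in wild type. In each genotype library 1 was the higher, the genotypes overlapped, and the ratio of summed counts was 0.928 (exact Poisson 95% interval 0.318 to 2.77). hnd-1, the HAND gene, had 3 and 1 UMI counts in mir-1(luc108) and 1 and 2 in wild type, or 6.82 and 3.16 CPM in mir-1(luc108), against 4.27 and 5.12 CPM in wild type. Its ratio of 1.1, from 4 UMI counts in mir-1(luc108) and 3 in wild type, had an exact Poisson 95% interval from 0.186 to 7.51. The counts thus left a wide range of ratios possible for hlh-8 and a wider one for hnd-1. These Poisson intervals cover counting error only.

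The 3′ ends of these genes affect how QuantSeq reads them. unc-120 and hnd-1 had no exon of another gene over their own in the Ensembl 115 annotation, and their 3′ untranslated regions were 220 and 143 bases long. At hlh-1, whose 3′ untranslated regions were 86 to 123 bases long, 68 bases near the 3′ end were shared with B0304.4 on the opposite strand, which had 1 UMI count in the 4 libraries together. At pal-1, 66 bases of the 3′ end were shared with metl-5 on the opposite strand, and at hlh-8 38 bases were shared with C02B8.12. The strand setting of the counting was not given in the sources used here, so reads of these overlaps could not be told apart by strand, and metl-5 and C02B8.12 were not analysed here.

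The contractile genes had mostly lower values in mir-1(luc108). All 27 genes of the contractile list passed the filter. Of these, 26 had a log2 fold change below 0, against 49.7% of all genes tested, with a median of −0.41 (0.755-fold) and a range from −1.1 for the troponin T gene tnt-2 to 0.09 for the troponin I gene tni-3. In 22 of 27 both mir-1(luc108) libraries lay below both wild-type libraries, against 18.9% of all genes tested. edgeR called 0 of 27 at an adjusted p below 0.05, against 0.0391% of all genes called lower, and 12 had an unadjusted p below 0.05 in the lower direction, against 4.58% of all genes. DESeq2 called ttn-1 without a prior on the fold change, and ttn-1 and tni-1 with it, while limma voom called 0. DESeq2 gave an adjusted p to 20 of the 27 without the prior and to 19 with it. The 12 genes with an unadjusted p below 0.05 became 3 without library 2 of mir-1(luc108), 5 without library 1 of wild type and 6 without library 2 of wild type, and stayed at 12 in number without library 1 of mir-1(luc108). The contractile list was already known to be lower in these libraries when it was chosen for this comparison, so its direction is no independent evidence. The body-wall muscle markers restate these genes, since 8 of the 11 are in the contractile list and 3 in the attachment list, and their summed level was 17759 and 16163 CPM in mir-1(luc108), against 24044 and 22432 CPM in wild type. The part of muscle cell content in the contractile values was not tested.

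The 6 most abundant contractile genes show the size of this difference. unc-54, the main body-wall myosin heavy chain, was at 6742 and 6866 CPM in mir-1(luc108), against 10020 and 9308 CPM in wild type. The libraries of the genotypes stood well apart, and edgeR put the log2 fold change at −0.51 with a standard error of 0.22 (adjusted p = 0.557). ttn-1, which encodes a titin-like protein, was at 6930 and 4568 CPM in mir-1(luc108), against 9951 and 9246 CPM in wild type. Library 2 of mir-1(luc108) was the lowest by far, and edgeR put the log2 fold change at −0.74 with a standard error of 0.24 (adjusted p = 0.309). tni-1, a body-wall troponin I gene, was at 2431 and 2080 CPM in mir-1(luc108), against 3292 and 3645 CPM in wild type, a log2 fold change of −0.62. The differences were smaller for the troponin C gene pat-10, the actin gene act-4 and the myosin light chain gene mlc-1. Their log2 fold changes were −0.25 for pat-10, −0.29 for act-4 and −0.24 for mlc-1, with unadjusted p between 0.193 and 0.253.

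**Figure D2:**
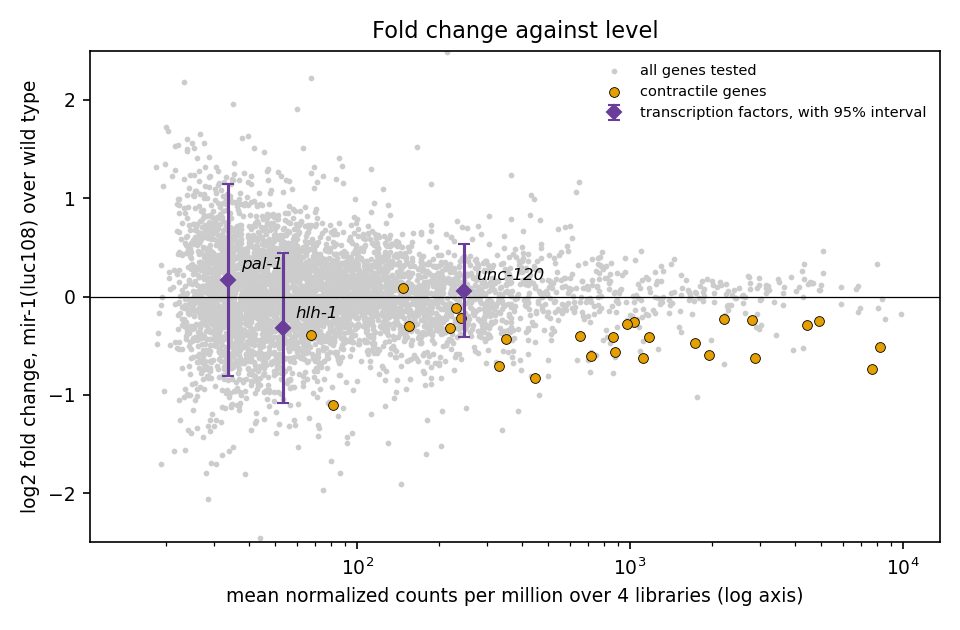
Log2 fold change of mir-1(luc108) over wild type against the mean level in CPM (log axis), for the 5111 genes tested in gray, the 27 contractile genes in orange and the 3 tested myogenic transcription factors in purple with 95% intervals, with 7 genes beyond the vertical range not drawn. The contractile genes lie below 0 except tni-3, and the intervals of the transcription factors span 0.

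Set against the contractile median of −0.41, the tested regulators differed in where they stood. hlh-1 was 0.09 above the median on the log2 scale, unc-120 was 0.47 above it and pal-1 was 0.58 above it. The median nevertheless lay inside the 95% interval of each of the 3. For unc-120, the lower bound of the interval (0.752-fold) was almost at the contractile median (0.755-fold). A fall of hlh-1 or pal-1 by as much as the contractile genes was therefore not distinguishable from no change at all in these libraries.

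Attachment genes gave a further comparison. This list held 22 genes, mostly for the integrin complexes, dense bodies, M-lines and basement membrane that anchor the sarcomeres. Of the 22, 18 had values below 0, with a median of −0.35, and 16 had both mir-1(luc108) libraries below both wild-type libraries, against 18.9% of all genes tested. edgeR called 0 of 22, against 0.0391% of all genes called lower. An unadjusted p below 0.05 was found for 6 of 22 on the lower side, against 4.58% of all genes, a count that went down to 0 without library 2 of mir-1(luc108) and to 2 without library 1 of wild type. The type IV collagen genes let-2 and emb-9 had log2 fold changes of −0.54 and −0.36, and dim-1, an immunoglobulin-domain muscle protein, had −0.55. tln-1, which encodes talin, was at 1320 and 1203 CPM in mir-1(luc108), against 1234 and 1306 CPM in wild type, a log2 fold change of −0.01. The genotypes of tln-1 overlapped, as those of the regulators did, whereas those of let-2, emb-9 and dim-1 did not.

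**Figure D3:**
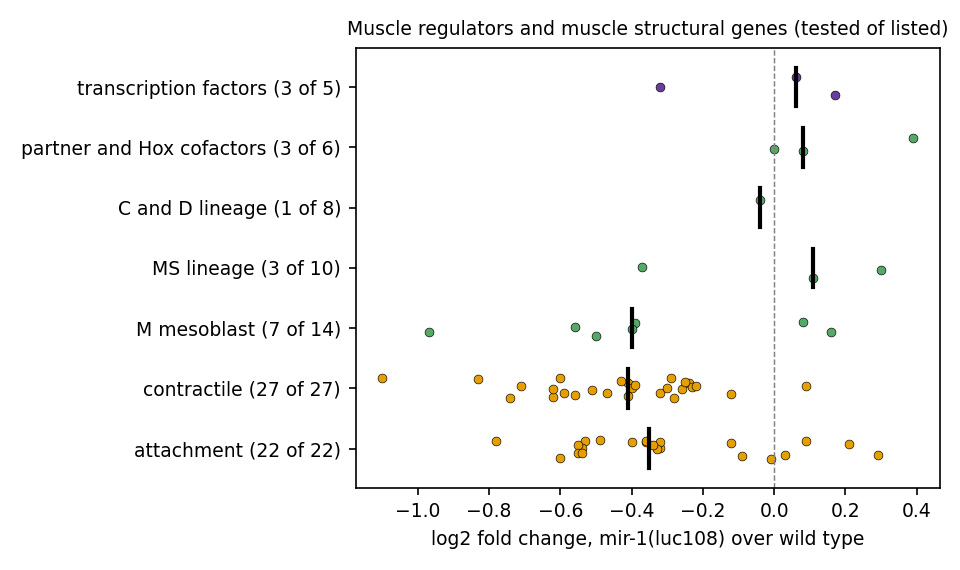
Log2 fold change of mir-1(luc108) over wild type for each tested gene of the myogenic transcription factors, 4 lists of other mesoderm regulators, the contractile list and the attachment list. Each point is a gene and each black bar the median, which is 0.06 for the transcription factors, −0.41 for the contractile list, −0.35 for the attachment list and −0.40 for the M mesoblast list.

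The regulators were then counted within each library against the contractile transcripts of the same library. The contractile genes held 18447 and 11486 UMI counts in mir-1(luc108) (4.07 and 3.35% of all counts), against 12973 and 20461 in wild type (5.29 and 4.81%). unc-120 had 64 and 63.6 counts per 10000 contractile counts in mir-1(luc108), against 49.3 and 40.6 in wild type. The mir-1(luc108) values exceeded both wild-type values, with means of 63.8 ± 0.291 in mir-1(luc108) and 44.9 ± 6.2 in wild type (SD, n = 2 each), a ratio of 1.42. The pooled ratio was 1.45 (exact Poisson 95% interval 1.16 to 1.81, counting error only). The exact two-sided permutation test gave p = 0.333, the smallest that 2 libraries against 2 allow. pal-1 had 7.05 and 11.3 per 10000 in mir-1(luc108), against 6.94 and 4.89 in wild type, which also did not overlap (exact permutation p = 0.333). The margin for pal-1 was narrow, and its genotypes overlapped when the attachment genes, or the contractile genes without the 3 most abundant, were the denominator.

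These 2 regulators of 5 are to be read against the background. Of all genes tested, 56.1% likewise had mir-1(luc108) values above both wild-type values when counted against the contractile sum, and 3.42% had lower values without overlap. hlh-1 had 13.6 and 10.4 per 10000 contractile counts in mir-1(luc108), against 10 and 12.2 in wild type, and the pooled ratio was 1.09 (exact Poisson 95% interval 0.673 to 1.76). Of the 3 tested factors, the MyoD gene had the ratio nearest to 1, but its interval overlapped that of unc-120. hlh-8 had 3.79 and 1.74 per 10000 in mir-1(luc108), against 3.85 and 1.47 in wild type. hnd-1 had 1.63 and 0.871 per 10000 in mir-1(luc108), against 0.771 and 0.977 in wild type. Both of these rested on too few counts to resolve a difference.

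A fit across all genes with the contractile sum as library size put a test on the same question. This scaling was chosen after seeing the data. It raised the median log2 fold change of all genes by 0.46, so that a value near 0.46 marks a gene that kept pace with most others. unc-120 was at 0.51 on the log2 scale in this edgeR fit, with a standard error of 0.24 (unadjusted p = 0.0487, adjusted p = 0.213). In the same fit 22.8% of all genes were higher with an unadjusted p below 0.05, and 0 genes were called. hlh-1 had 0.12 (adjusted p = 0.84) and pal-1 had 0.61 (adjusted p = 0.408). Relative to the shift of all genes, unc-120 and pal-1 lay slightly above it and hlh-1 lay below it, with an interval from −0.65 to 0.89 that contained both 0 and the shift.

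**Figure D4:**
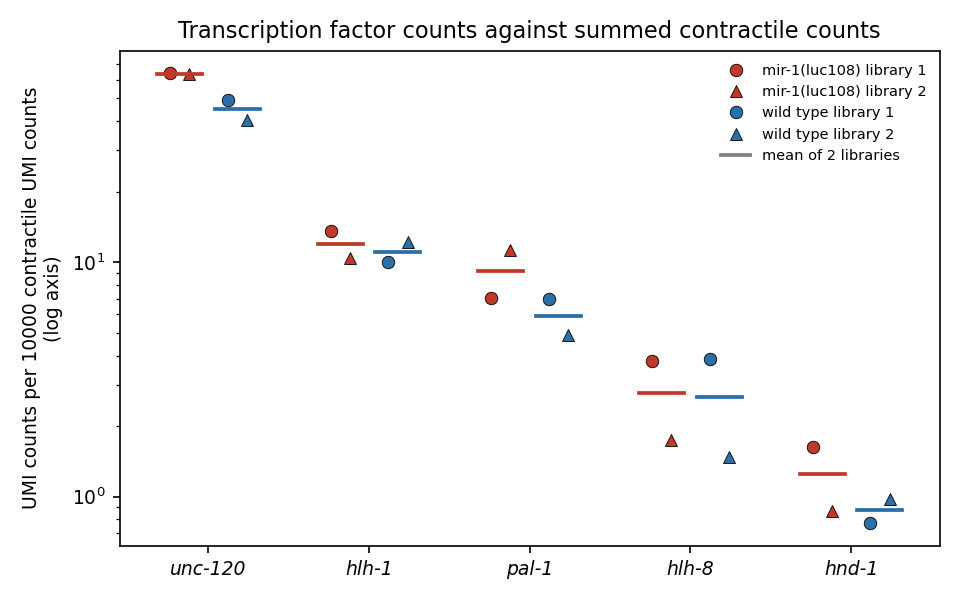
UMI counts of the 5 myogenic transcription factors per 10000 UMI counts of the 27 contractile genes in the same library (log axis), with mir-1(luc108) in red on the left and wild type in blue on the right, points for libraries and lines for means of 2 libraries. unc-120 stands at 64 and 63.6 in mir-1(luc108) and 49.3 and 40.6 in wild type, and the genotypes overlap for hlh-1, hlh-8 and hnd-1.

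Other genes of the mesoderm network were examined by the point at which they act. Among the partner and cofactor genes, 3 of 6 were tested and 0 were called. hlh-2, the E protein partner of HLH-8, was at 75 and 50.5 CPM in mir-1(luc108), against 34.2 and 58.9 CPM in wild type. Library 1 of wild type was the lowest and the genotypes overlapped, and edgeR put the log2 fold change at 0.39 with a standard error of 0.38 (adjusted p = 0.871). The Hox cofactor genes unc-62, of the Meis family, and ceh-20, of the Pbx family, were at levels close to that of unc-120. unc-62 was at 279 and 240 CPM in mir-1(luc108), against 277 and 223 CPM in wild type. ceh-20 was at 266 and 183 CPM in mir-1(luc108), against 231 and 223 CPM in wild type, with a log2 fold change of 0.00. mef-2 was not analysed here.

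Genes of the C and D lineages, in which PAL-1 acts, were mostly below the filter, and 1 of 8 was tested. cwn-1, a Wnt ligand gene, was at 102 and 97.9 CPM in mir-1(luc108), against 111 and 97.3 CPM in wild type. elt-1, a GATA factor gene of epidermal and C-derived cells, had 7 and 6 UMI counts in mir-1(luc108) and 5 and 9 in wild type. php-3, a posterior Hox gene, had 5 and 3 UMI counts in mir-1(luc108) and 5 and 9 in wild type. After normalization elt-1 was at 15.9 and 18.9 CPM in mir-1(luc108), against 21.3 and 23.1 CPM in wild type, and php-3 at 11.4 and 9.47 CPM in mir-1(luc108), against 21.3 and 23.1 CPM in wild type. Neither pair of genotypes overlapped, and 18.9% of all genes tested likewise had mir-1(luc108) lower without overlap. The sums were only 13 UMI counts in mir-1(luc108) and 14 in wild type for elt-1. For php-3 they were 8 in mir-1(luc108) and 14 in wild type.

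Genes of the MS lineage and its neighbours gave 3 of 10 tested and 0 called. skn-1, which specifies the blastomere that gives rise to MS, was at 86.3 and 78.9 CPM in mir-1(luc108), against 68.3 and 66.6 CPM in wild type. Its genotypes did not overlap, and 19.5% of all genes tested likewise had mir-1(luc108) higher without overlap. The log2 fold change of skn-1 was 0.30, with a standard error of 0.32. pop-1, the TCF protein of the Wnt pathway, was at 38.6 and 34.7 CPM in mir-1(luc108), against 42.7 and 51.2 CPM in wild type, a log2 fold change of −0.37 (standard error 0.40). tbx-2, a T-box gene of pharyngeal muscle, had overlapping genotypes and a log2 fold change of 0.11.

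Genes of the M mesoblast, in which HLH-8 acts, were tested in 7 of 14 cases, and 0 were called. Values below 0 were found for 5 of the 7, and the median was −0.40. In 4 of the 7 both mir-1(luc108) libraries were below both wild-type libraries, against 18.9% of all genes tested. The Schnurri-type zinc-finger gene sma-9 was at 111 and 123 CPM in mir-1(luc108), against 154 and 154 CPM in wild type, and edgeR put the log2 fold change at −0.40 with a standard error of 0.26 (adjusted p = 0.769). The fibroblast growth factor receptor gene egl-15 was at 136 and 85.2 CPM in mir-1(luc108), against 145 and 172 CPM in wild type, a log2 fold change of −0.50. The Hox gene lin-39 was at 43.2 and 34.7 CPM in mir-1(luc108), against 72.6 and 48.7 CPM in wild type. The SoxC gene sem-2, chosen here after its value was seen, was the gene of this list with an unadjusted p below 0.05 in the edgeR fit over all genes (log2 fold change −0.97, unadjusted p = 0.0229, adjusted p = 0.515). Its levels were 31.8 and 37.9 CPM in mir-1(luc108), against 47 and 82 CPM in wild type. Several of these genes are also used in neurons or epidermis, and hlh-8 itself, the defining gene of the M mesoblast, had 17 UMI counts in all 4 libraries. Fitted with no filter on low counts, the 13 genes of this list in the table had a median of 0.10, with 6 values below 0 and 7 above, so the negative median depended on the filter.

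The genes most like each tested regulator were found by the root mean square difference of centred log2 CPM over the 4 libraries, among 5111 genes. For unc-120 they were C12D8.1 (0.013), klp-7 (0.017), a kinesin-13 gene of mitosis, and the Hox cofactor gene unc-62 (0.017). For hlh-1 they were K03B4.1 (0.021), the peroxisomal dehydrogenase gene dhs-28 (0.027) and M05D6.2 (0.027). For pal-1 they were T07A9.14 (0.012), exc-7 (0.021), an RNA-binding protein gene of the ELAV family, and F11C1.5 (0.032). With 4 libraries such likeness is common, since 194 genes lay within 0.1 of unc-120 and 88 genes lay within 0.1 of each of hlh-1 and pal-1.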

How the data were processed

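Sorted muscle cells were profiled in 4 libraries, 2 per genotype, by QuantSeq 3′ mRNA sequencing. The authors used UMI-tools for identifiers and duplicates and STAR for mapping to WBcel235, and deposited raw UMI counts per gene from HTSeq. Versions, annotation release and strand setting are not given in the sources used here. Every column was mapped to a sample (0 left out), and genotypes came from the sample labels.

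The counts of 14463 genes were analysed in R 4.3.3 with edgeR 4.0.16 (quasi-likelihood test, TMM factors, filterByExpr with a minimum count of 10, adjusted p below 0.05 over 5111 genes), and the test was checked on simulated data. CPM values use TMM-scaled library sizes of the tested genes. DESeq2 1.42.0 and limma 3.58.1 were alternatives, with other factors and filters, a replicate block and each library left out. Genes under the filter are given as ratios of summed counts with exact Poisson 95% intervals. Gene positions come from Ensembl 115, in which 13211 table names were found. Depth lay between 245336 and 453341 UMI counts per library. Precision depends on depth and on the spread between libraries, and intervals on counts cover counting error only.

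The 5 genes and all lists were chosen with earlier results of these data known. Named genes are the 5 factors, hlh-2, the most abundant 6 contractile, 4 attachment and 3 genes of each other regulator list, 2 of each cell type marker list, and the 3 tested genes nearest to each tested factor; others are named as chosen afterward or as extremes of a list.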

Additional observations from a re-analysis of the deposited data

How the results depend on the processing

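The 3 tested myogenic factors stayed uncalled under all 14 alternatives, with adjusted p from 0.739 to 0.997 for hlh-1, 0.213 to 0.997 for unc-120 and 0.408 to 0.997 for pal-1, where DESeq2 gave none. Leaving out single libraries moved the log2 fold change from −0.68 to −0.09 for hlh-1, from −0.13 to 0.24 for unc-120 (−0.07 without mir-1(luc108) library 1 and −0.13 without wild-type library 2) and from −0.15 to 0.44 for pal-1 (−0.06 without mir-1(luc108) library 2 and −0.15 without wild-type library 2). hlh-1 turned to 0.12 only with the contractile sum as library size, an alternative chosen after seeing the data that shifts every gene up. Under the filter, hlh-8 had −0.14 and hnd-1 0.14 with no filter on low counts.

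The number of genes called over all genes depended strongly on the settings. It was 3 in the main fit (1 higher, 2 lower) and 63 with no filter (27 higher, 36 lower). DESeq2 size factors, upper quartile factors or a minimum count of 5 gave 5 (2 higher and 3 lower in each). Library size only gave 2 (1 higher, 1 lower) and limma voom 1 (1 higher, 0 lower). DESeq2 gave 2 without prior (0 higher, 2 lower) and 4 with prior (1 higher, 3 lower). DESeq2 gave an adjusted p to only 627 genes without prior and 452 with prior. With contractile scaling the number was 0 (0 higher, 0 lower). With single libraries left out it ranged from 0 to 66 (0 to 17 higher, 0 to 49 lower); there the lone library of a genotype is assumed to vary like the other genotype. The cause was not tested. The labels do not say whether libraries with the same number were prepared together. The correlation of their deviations over genes was 0.013, a value over all genes that cannot exclude a shared preparation. A replicate block called 87 genes (28 higher, 59 lower), with 9 contractile and 2 attachment genes, but no factor (hlh-1 −0.35, unc-120 0.04, pal-1 0.17). DESeq2 called 1 contractile gene without and 2 with its prior, of the 20 and 19 contractile genes to which it gave an adjusted p.

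The contractile median ranged from −0.53 to −0.33 and the attachment median from −0.47 to −0.29 with single libraries left out. With contractile scaling the medians were 0.05 for contractile, 0.11 for attachment, 0.53 for partner and cofactor, 0.41 for C and D lineage, 0.56 for MS lineage and 0.03 for M mesoblast genes. Short lists moved with their members: C and D lineage to −0.35 with no filter, −0.37 with a minimum count of 5 and −0.37 with DESeq2 without prior (−0.15 to 0.05 with libraries left out), MS lineage to −0.03 and 0.01 with DESeq2 without and with prior (−0.21 to 0.32), and M mesoblast to 0.10 with no filter and 0.03 and 0.00 with DESeq2 (−0.76 to −0.23). Per contractile count, leaving out libraries gave log2 ratios of 0.37 to 0.65 for unc-120, 0.25 to 0.93 for pal-1, −0.09 to 0.29 for hlh-1, −0.61 to 0.92 for hlh-8 and −0.01 to 0.90 for hnd-1. Depth limits hnd-1 and hlh-8 most.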

Other observations

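The mesoderm regulators ceh-34 (a sine oculis type homeodomain gene) and eya-1 (Eyes absent family) were measured at levels above hlh-1. ceh-34 was at 168 and 152 CPM in mir-1(luc108), against 128 and 143 CPM in wild type, with a log2 fold change of 0.23. eya-1 was at 116 and 114 CPM in mir-1(luc108), against 137 and 128 CPM in wild type, with a log2 fold change of −0.20. The genotypes of each gene did not overlap, in opposite directions, and 38.3% of all genes tested had genotypes that did not overlap. Neither gene was called by edgeR (adjusted p = 0.894 for ceh-34 and 0.921 for eya-1).

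The epidermal genes noah-1 and dpy-7 and the synaptic gene snb-1 were at levels near that of unc-120. noah-1 had a log2 fold change of 0.26, dpy-7 of 0.20 and snb-1 of 0.09, and none of these was called. Of the 8 epidermal markers tested, 5 had values above 0 and 3 below, with a median of 0.09. The genotypes did not overlap for 2 of them on the higher side and 2 on the lower side. Over all genes tested these shares were 19.5% and 18.9%. The neuronal marker sbt-1 was at 90.9 and 91.5 CPM in mir-1(luc108), against 76.8 and 84.5 CPM in wild type. Of 12 neuronal markers, 7 were tested, and all 7 had values above 0, against 50.3% of all genes tested. Their median was 0.17, with 0 of them under an unadjusted p of 0.05 in the edgeR test. Under the filter on low counts, rab-3, ric-4, unc-31 and snt-1 had lower means in mir-1(luc108) and rgef-1 a higher one. The pharyngeal organ identity gene pha-4 was at 90.9 and 110 CPM in mir-1(luc108), against 85.4 and 102 CPM in wild type. Of 10 pharyngeal markers, 6 were tested, with 1 value above 0 and 5 below, and the median was −0.46. Values below 0 were found for 49.7% of all genes tested. In the edgeR test 1 of the 6 had an unadjusted p below 0.05, on the lower side, against 4.58% of all genes tested. The genotypes overlapped for all 6, while 38.3% of all genes tested had genotypes that did not overlap. The pharyngeal troponin gene tni-4 was at 86.3 and 75.8 CPM in mir-1(luc108), against 51.2 and 169 CPM in wild type, and the intestinal protease gene asp-1 at 77.3 and 107 CPM in mir-1(luc108), against 25.6 and 236 CPM in wild type. Library 2 of wild type was the highest and library 1 of wild type the lowest for both, so these markers differed more within wild type than between genotypes. Germline markers were near 0, with 1 of 6 detected in all 4 libraries and glh-1 at 5 UMI counts in mir-1(luc108) and 6 in wild type and pgl-1 at 7 in mir-1(luc108) and 1 in wild type.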
